A study of Mus musculus with 2 samples.

Results

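The interleukin-6 (IL-6) family is a group of secreted cytokines that share a signalling receptor. The genes described here were chosen by name, as the 4 ligands *Il6*, *Il11*, *Lif* and *Osm*, the 4 receptor genes *Il6st*, *Il11ra1*, *Osmr* and *Lifr*, and *Socs3*, a target gene that feeds back on the receptor. All 9 were among the 19465 genes measured.

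The sections came from femurs of female bone cell reporter (BCR) mice, in which CRISPR-Cas9 editing had placed eGFP and mCherry labels at *Ibsp* and *Acp5*, genes of bone-forming and bone-resorbing cells. At 12 weeks of age each mouse received a femoral osteotomy held by an external fixator, and mice whose gap had bridged at week 3 were split into Control and Loaded. From week 3 to week 5, 3 times per week, Loaded mice received cyclic compression of 8 to 16 N at 10 Hz for 3000 cycles, with the force set for each animal, and Control mice received sham loading at 0 N. Both femurs were taken 10 hours after the last session, at 17 weeks of age, and 1 section of each was measured with Visium, which captures probe-ligated transcripts on spots 55 µm wide and 100 µm apart.

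With 1 section per condition there is no replicate, so no test between conditions was possible, and mouse, section, depth and loading cannot be told apart. A spot covers several cells, and fewer cells of a type cannot be told apart from less RNA per cell. The study's list of bone barcodes at the fracture site named 131 Control and 146 Loaded spots, and all were found. The remaining spots under tissue, here called other spots, numbered 1767 in Control and 1285 in Loaded after 64 and 5 shallow ones were left out.

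Signalling by this family starts when a ligand joins its own receptor chain to the common chain gp130, encoded by *Il6st*. Interleukin-6 uses the chain encoded by *Il6ra*, interleukin-11 uses *Il11ra1*, leukemia inhibitory factor uses *Lifr*, and oncostatin M uses *Osmr* or *Lifr*. The complex activates JAK kinases and STAT3, and *Socs3* encodes an inhibitor that binds gp130 and limits the signal. In bone, these cytokines are made by osteoblasts, osteocytes, stromal and blood cells, act on bone formation, and promote osteoclast formation through RANKL.

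In the GENCODE annotation of GRCm38, *Il6* is at chr5:30013114-30019981 (+), *Il11* at chr7:4772373-4782859 (-), *Il6st* at chr13:112464070-112510086 (+), *Il11ra1* at chr4:41699989-41769474 (+) and *Socs3* at chr11:117966079-117970047 (-). *Osm* (chr11:4236420-4241026, +) and *Lif* (chr11:4257557-4272514, +) are separated by 16530 bases. *Osmr* (chr15:6813577-6874969, -) and *Lifr* (chr15:7090614-7197489, +) are separated by 215644 bases. *Il11ra1* has a near-identical copy, *Il11ra2*, which was not analysed here, and transcripts of the copy that matched its probes would be counted under *Il11ra1*.

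*Il11* had the largest ratio of the members between the bone regions, and its promoter is shown for that reason. The 250 bases before the start of transcript Il11-201 (GRCm38.p6, chr7:4778142-4778391, minus strand, RefSeq) overlap no annotated exon and lie within the introns of 2 longer transcripts. Capitals mark the single match to the AP-1 motif TGANTCA, searched on both strands, which ends 91 bases before the start.
Il11: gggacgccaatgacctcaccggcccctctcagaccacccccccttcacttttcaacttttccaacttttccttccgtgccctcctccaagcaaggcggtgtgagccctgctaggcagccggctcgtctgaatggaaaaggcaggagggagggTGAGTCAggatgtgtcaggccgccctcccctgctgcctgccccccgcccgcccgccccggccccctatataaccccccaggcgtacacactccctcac

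AP-1 is the dimer of Fos and Jun proteins, transcription factors of the immediate early response. Windows of this length were given for 8 members and none for *Osm*. *Il6*, *Il11* and *Lif*, the 3 ligands with a window, each had a window with the AP-1 motif, for *Il11* 1 of its 2 windows. No window of the 4 receptor genes or *Socs3* held it. Of all 32851 promoter windows, 6.75% held it, and 2113 of 27025 genes had such a window. The STAT motif TTCNNNGAA was found in 7.02% of windows and, among the members, in *Socs3* alone. The stretches are printed with capitals on the match, *Il6* from chr5:30012864-30012881 (+) and *Lif* from chr11:4257330-4257356 (+) for AP-1 and *Socs3* from chr11:117969502-117969530 (-) for STAT. The *Socs3* stretch lies within the annotated span of the gene given above. Overlap with exons was checked for the printed *Il11* window alone. A match describes letters and not binding.
Il6: cTGAGTCActtttaaaga
Lif: cagtcagctgTGACTCAggccatagtg
Socs3: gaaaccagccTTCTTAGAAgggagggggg

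The UMIs (unique molecular identifiers, 1 for each captured molecule) of a region were summed and divided by the summed scran size factors of its spots. Levels are given as normalized UMIs per 100 spots of average depth, with exact 95% Poisson intervals, and ratios on the log2 scale with exact conditional binomial 95% intervals. The intervals cover counting error only. Probes differ between genes, so levels were compared between regions and not between genes. A gene with at least 10 UMIs over the pair of regions was counted as higher or lower where the ratio was at least 2-fold and its interval left out 0. The depth was 557259 UMIs in Control bone and 409020 in Loaded bone, with medians of 3478 and 2621 UMIs per spot, and 8426953 and 4499787 in the other spots.

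Osteoblast markers took a larger share of UMIs in the bone spots than in the other spots, which were at 0.775% in Control and 1.14% in Loaded. In Control the blocks overlapped, with 0.110% to 2.66% in the other spots. All 8 osteoblast markers were detected in both sections and made up 2.10% of the UMIs of Control bone (0.587% to 4.31% over its 4 blocks) and 6.78% of Loaded bone (4.28% to 9.70%). All 22 muscle markers were also detected, at 16.8% in Control bone (5.89% to 30.6%) and 8.58% in Loaded bone (5.04% to 12.5%), so the Control bone spots held more muscle transcripts. The 4 osteocyte markers made up 0.00933% of Control bone and 0.0797% of Loaded bone, against 0.0106% and 0.00840% of the other spots. In Control they were thus not higher in bone. The 10 granulocyte markers made up 0.0894% and 0.368% of the bone regions, and the 8 macrophage markers 0.0937% and 0.102%. The 7 tendon and fibrous markers made up 0.471% and 0.231%. *Adgre1* was at 0 in Loaded bone. The part of these differences in the results was not tested.

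The ligands were rare. Over all 3329 spots of both sections, 34 UMIs of *Il6* were counted, 33 of *Il11*, 24 of *Lif* and 22 of *Osm*, against 1737 of *Il6st*, 1315 of *Il11ra1*, 1063 of *Lifr*, 414 of *Socs3* and 389 of *Osmr*. In the bone spots, *Il11* alone among the ligands reached 10 UMIs, and the other three had 1 or 2 UMIs in each section.

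**Figure D1:**
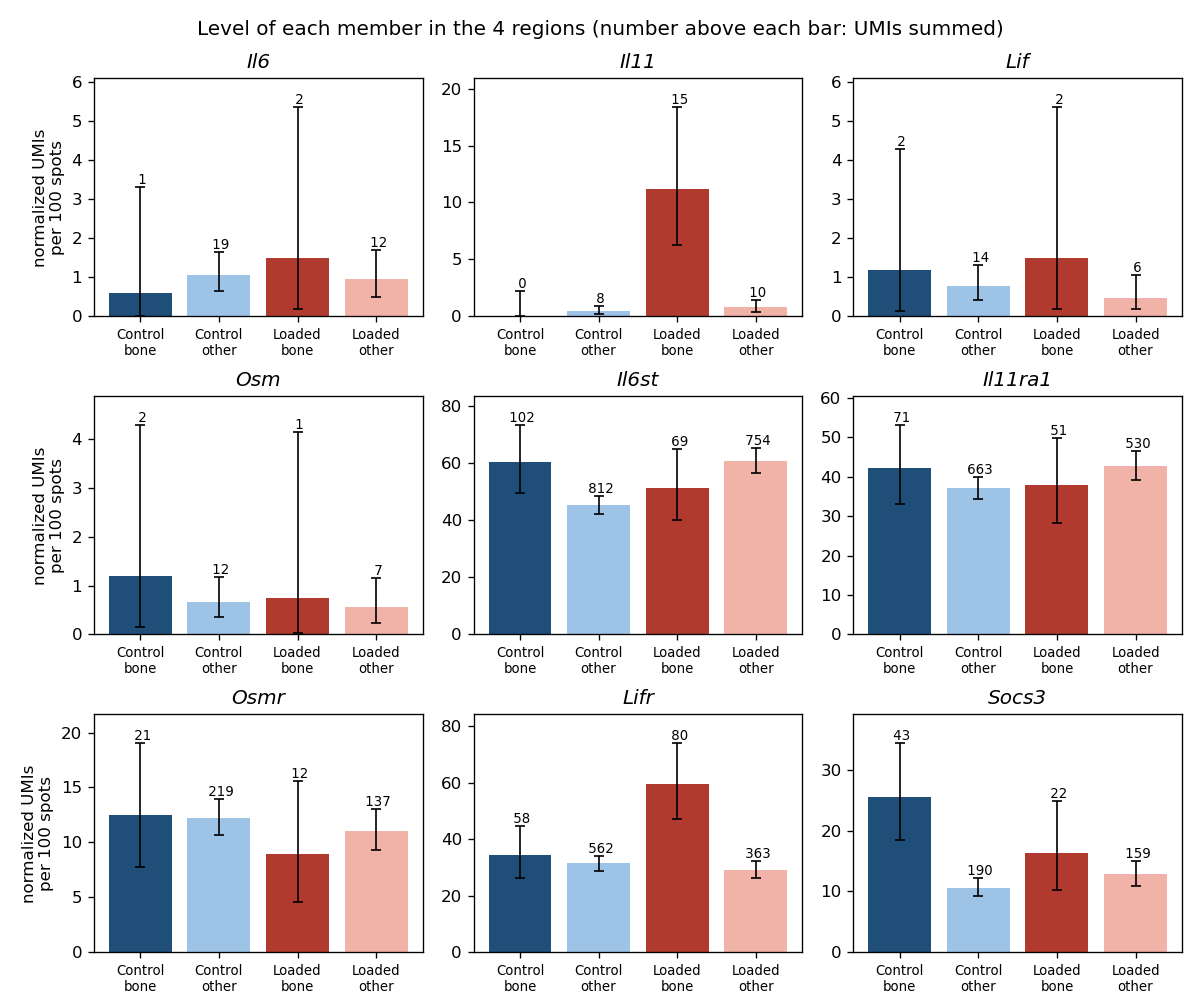
Level of each member in the bone spots and the other spots of the Control and Loaded sections, in normalized UMIs per 100 spots, with the summed UMIs above each bar and exact 95% Poisson intervals as error bars (1 section per condition, counting error only). *Il11* was at 11.2 in Loaded bone and at 0.806 or less elsewhere, *Lifr* was highest in Loaded bone and *Socs3* in Control bone. The scale differs between panels.

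*Il11*, a cytokine known to stimulate bone formation and to be induced in osteoblasts by mechanical load, had 15 UMIs in Loaded bone and 0 in Control bone. Its level was 11.2 (6.25 to 18.4) in Loaded bone and 0 (0 to 2.19) in Control bone. With the 0 of Control bone set to 3 UMIs, *Il11* was 6.26-fold higher in Loaded bone (log2 ratio of 2.65). This value depends on that setting and is not a confidence limit. The exact interval for 15 against 0 UMIs had a lower limit of 2.17, below it. Beside its own section it was 13.9-fold higher in Loaded bone than in the other spots, where 10 UMIs gave 0.806 (+3.79, 2.54 to 5.11). In the Control section 8 UMIs in the other spots gave 0.448, a level inside the interval of Control bone. The other spots of the 2 sections did not differ beyond counting error (+0.85, -0.64 to 2.39).

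The *Il11* transcripts of Loaded bone were concentrated in 1 place. Each region was divided into 4 blocks at the median position of the bone spots along and across the shaft, and block 1 of Loaded bone held 13 of the 15 UMIs. Blocks 2 and 4 held 1 each and block 3 none, giving levels of 28.0, 3.79, 0 and 3.16 in blocks 1 to 4. All 4 blocks of Control bone were at 0, and each block of the Control other spots held *Il11*, at 0.147 to 0.967. No ratio was given for this comparison, in which 0.831% of all genes tested had all bone blocks above and 4.33% all below. The blocks of the Loaded other spots were at 0.392 to 1.17. Without block 1, 2 UMIs remained in Loaded bone, which is too few for a ratio against Control and gave +1.50 against the other spots. The ratio of 2.65, with 0 set to 3 UMIs, was 1.86 without block 1 of Control bone, still on 15 and 0 UMIs. It was 0.91, on 7 and 0 UMIs, with only the bone spots that had a muscle share below 5%. In both, the same 3 UMIs stood for 0 over fewer Control spots. These lower values therefore do not show a smaller difference. Blocks are parts of 1 section and not replicates.

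The 15 UMIs lay in 11 spots, 3 of which held 2 or 3. The positions of these spots were looked at after their counts had been seen. All 11 lay within 500 µm of the middle of the bone region along the shaft, the farthest at 347 µm, and 90 of the 146 Loaded bone spots lay within that distance. In Control bone, 45 of 131 spots lay within 500 µm of the middle, and none held *Il11*. At the ends of Loaded bone the level was 0 (0 to 12.3) and near the middle 14.4 (8.05 to 23.7). With the 0 at the ends set to 3 UMIs the log2 ratio was 0.52, below 2-fold, with an exact interval from 0.05 upward. As the 500 µm were set after these positions were seen, this interval cannot test where *Il11* lay. Of all genes tested in this contrast, 1.15% were higher in the middle. Just outside bone, 5 of the 10 *Il11* UMIs of the Loaded other spots lay within 200 µm of a bone spot, where 0 of 8 lay in Control. That distance took in 256 of 1285 other spots in Loaded and 245 of 1767 in Control. The levels there were 1.60 (0.52 to 3.74) and 0 (0 to 1.30), with overlapping intervals. At 200 to 500 µm in Loaded the level was 1.02.

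**Figure D2:**
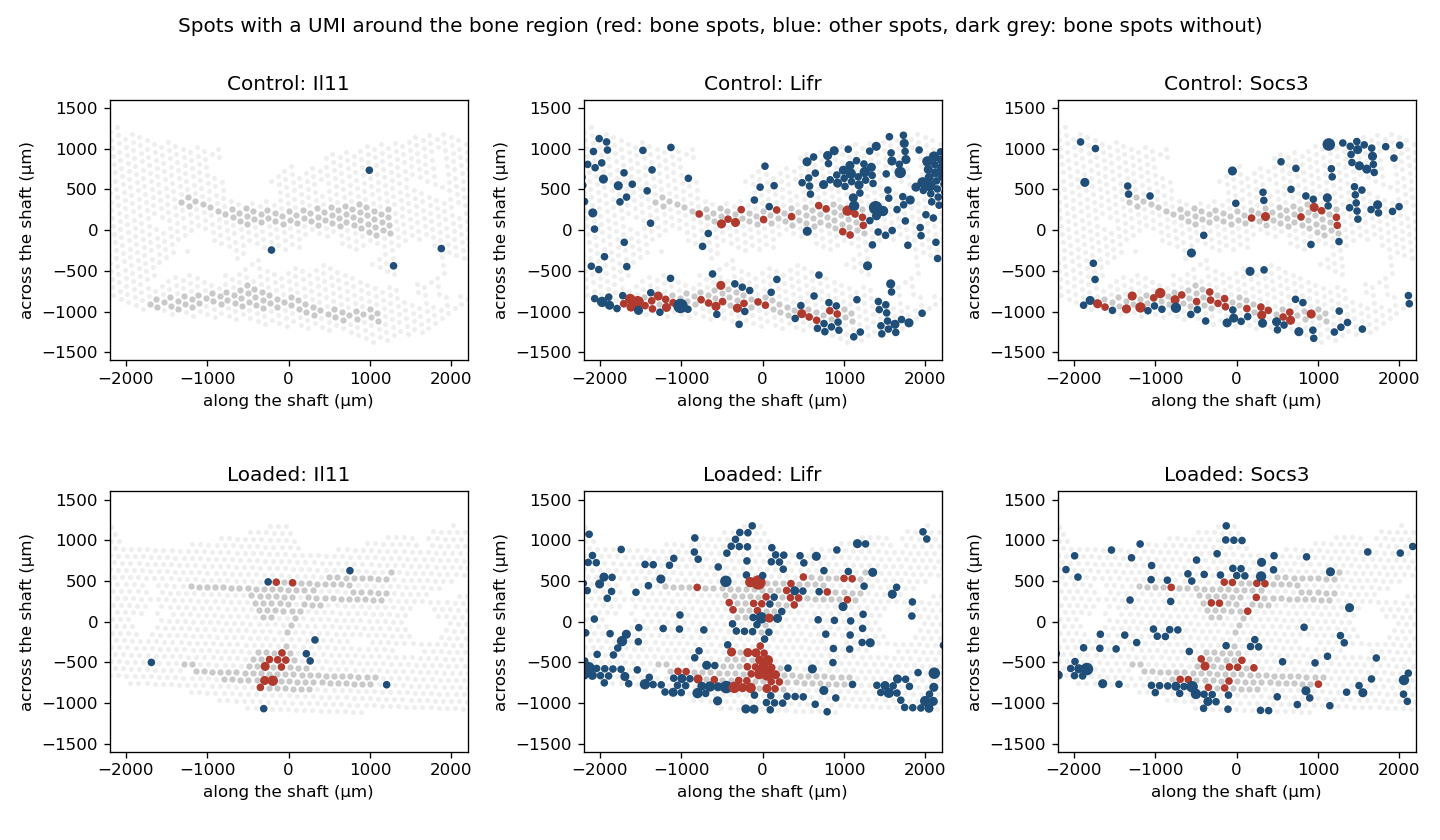
Positions of the spots around the bone region of the Control (top) and Loaded (bottom) sections, in µm along and across the shaft. Red points are bone spots and blue points other spots with at least 1 UMI of *Il11*, *Lifr* or *Socs3*, larger for more UMIs, dark grey points are bone spots without one and light grey points other spots without one. The 11 red *Il11* spots of the Loaded section lie near the middle, 9 of them in one of its 4 blocks, and the Control section has none.

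What the *Il11* spots held besides *Il11* was read in the same 11 spots, again after the counts had been seen. Osteoblast markers made up 11.3% of their UMIs, with single spots from 5.97% to 17.6%, against 6.18% in the 135 Loaded bone spots without *Il11* and 6.50% in the 79 of these within 500 µm of the middle. Muscle markers made up 4.98% against 9.05% and 8.12%. Osteoclast markers made up 0.607% against 0.468% and 0.537%, osteocyte markers 0.0779% against 0.0799% and 0.0808%, and erythroid markers 1.51% against 3.23% and 3.25%. The *Il11* spots had a median of 2947 UMIs against 2573, or 3002 near the middle. The ranges of single spots overlapped for each of these lists. Of the 11 spots, 9 lay in block 1 of Loaded bone. As a whole, that block was at 9.70% for osteoblast, 5.04% for muscle and 2.17% for erythroid markers. What the *Il11* spots held can therefore not be told apart from what their block held.

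Receptor transcripts were found in some of the same spots. Of the 11 *Il11* spots in Loaded bone, 5 held *Il11ra1*, 5 held *Il6st* and 2 held both, where 41, 52 and 16 of all 146 bone spots did. The share with *Il11ra1* was 45.5% (exact binomial 95% interval 16.7% to 76.6%) against 28.1% (21.0% to 36.1%). *Lifr* was in 7 of the 11 spots and 48 of 146, and *Socs3* in 3 and 21. With 11 spots these shares cannot be distinguished from those of the region.

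The share of spots with *Il11* depended on depth. It was 7.53% of Loaded bone spots as counted and 0% of Control bone spots, where the exact interval of 0 of 131 reaches 2.78%. With every spot drawn down to 1000 UMIs, and 15 shallower Loaded bone spots dropped, the share was 3.82% (1.25% to 8.68%) against 0% (0% to 2.78%), and at 500 UMIs it was 1.37% (0.166% to 4.86%) against 0% (0% to 2.78%). The intervals overlapped at both depths. The thinning was random and was not repeated, so variation between draws is not included. The thinned share in spots rich in muscle transcripts was 0.155% in Loaded and 0.114% in Control.

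*Il6*, *Lif* and *Osm* gave no ratio between the bone regions. *Il6*, a cytokine of inflammation and early repair, had 1 UMI in Control bone and 2 in Loaded bone, and 19 and 12 UMIs in the other spots. *Lif* had 2 UMIs in each bone region, with 14 and 6 in the other spots. *Osm*, a product of macrophages and other blood cells, had 2 UMIs in Control bone and 1 in Loaded bone, with 12 and 7 in the other spots. Between the other spots of the sections the log2 ratios were -0.14 for *Il6*, -0.70 for *Lif* and -0.25 for *Osm*, each with an interval that held 0. Dividing by library totals moved all genes of this comparison up by 0.38 and turned *Il6* and *Osm* positive.

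*Il6* was lower in muscle spots of both sections by this limit, and *Lif* in Control alone. Among the other spots, those with a muscle share of at least 10% of UMIs numbered 1047 in Control and 680 in Loaded. *Il6* had 5 UMIs there and 14 in the remaining 720 spots of Control, a ratio of -2.99 (-4.82 to -1.44), and 1 UMI against 11 in the remaining 605 spots of Loaded (-3.97, -9.39 to -1.18). *Lif* had 6 against 8 UMIs in Control (-1.92, -3.73 to -0.21). In Loaded it had 1 against 5 (-2.83, -8.39 to 0.33), too few UMIs to be counted, with an interval that held 0. Lower levels in muscle spots were common, at 34.6% of all genes tested in Control and 23% in Loaded (higher, 12.5% and 7.87%), so the count of 2 members in Control and 1 in Loaded is not particular to them. The result moved with the limit, and so did the shares of all genes. With a limit of 5%, 22.3% of all genes tested were lower in Control and 9.58% in Loaded (higher, 12.5% and 9.4%). With 20%, 39.6% and 16.9% were lower (higher, 12.4% and 4.95%). In Loaded, *Il6* was at -0.35 with a limit of 5% and at -2.15 with 20%, neither counted as lower. In Control, *Il6* was at -1.33 and *Lif* at -1.97 with 5%, where only *Lif* was counted, and at -2.63 and -1.13 with 20%, where *Il6* was counted, with *Osm* (-2.30).

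The receptor genes were present in both bone regions at levels near those of the other spots, with *Lifr* in Loaded bone as the exception. *Il6st*, the common chain gp130, had 102 UMIs in Control bone and 69 in Loaded bone, or 60.7 (49.5 to 73.6) and 51.4 (40.0 to 65.0) normalized UMIs per 100 spots. *Il11ra1*, the chain that binds interleukin-11, had 71 and 51 UMIs, or 42.2 (33.0 to 53.3) and 38.0 (28.3 to 49.9). *Osmr*, the chain for oncostatin M, had 21 and 12 UMIs, or 12.5 (7.73 to 19.1) and 8.94 (4.62 to 15.6). Over all bone spots, none of these 3 differed between the bone regions beyond counting error, with log2 ratios of -0.24 (-0.70 to 0.22), -0.15 (-0.70 to 0.39) and -0.48 (-1.64 to 0.61). In bone spots with a muscle share below 5%, they were at +0.08, -1.40 and -0.31. There *Il11ra1* passed the limits, on 8 UMIs in Loaded and 17 in Control. Without block 1 of Control bone, *Il11ra1* was at +0.31. Against the other spots of their own section they were at +0.42 (0.10 to 0.71), +0.19 and +0.03 in Control and at -0.24, -0.17 and -0.31 in Loaded. The blocks of Control bone ranged widely, from 22.0 to 82.8 for *Il6st* and from 14.7 to 58.2 for *Il11ra1*, and held those of Loaded bone, at 37.9 to 58.1 and 30.1 to 44.3.

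*Lifr*, the chain for leukemia inhibitory factor and also used by oncostatin M, had 58 UMIs in Control bone and 80 in Loaded bone. Its level was 34.5 (26.2 to 44.6) and 59.6 (47.2 to 74.1), a ratio of +0.79 (0.28 to 1.30) or 1.73-fold. The interval left out 0, and the ratio was below 2-fold. The blocks of Loaded bone were at 66.7, 60.6, 67.1 and 41.1 and those of Control bone at 44.0, 51.3, 24.0 and 23.6, so 1 Loaded block lay below 2 of the Control blocks and the other Loaded blocks lay above all of them. Over the alternatives to the normalization, filter and blocks, the ratio ranged from 0.62 to 1.11, the highest without block 1 of Control bone, where it passed the limits. In bone spots with a muscle share below 5%, 27 in Loaded and 14 in Control, it was +0.73 with 41 and 20 UMIs.

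Within the Loaded section, *Lifr* was 2.04-fold higher in bone than in the other spots (+1.03, 0.66 to 1.38), where its level was 29.3 (26.3 to 32.4). All 4 bone blocks, from 41.1 to 67.1, stood above all 4 blocks of the other spots, from 24.9 to 34.9. Of all genes tested in this comparison, 3.67% had all bone blocks above and 7.65% all below. In the Control section *Lifr* was nearly level between bone and other spots (+0.13, -0.28 to 0.52), and library totals, which moved all genes of that comparison up by 0.51, gave +0.64. The ratio of Loaded bone to other spots was close to the 2-fold limit, and it fell below it with TMM factors (+0.92) and without bone block 1 or 3 (+0.93 and +0.97) or other block 3 or 4 (+0.92 and +0.98).

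The share of spots with *Lifr* depended on the depth at which it was read. As counted, with more UMIs per spot in Control, 31.3% of Control and 32.9% of Loaded bone spots held it, and after thinning to 1000 UMIs the share was 14.5% (8.96% to 21.7%) in each. At 500 UMIs it was 3.82% (1.25% to 8.68%) in Control bone and 7.53% (3.82% to 13.1%) in Loaded bone, with overlapping intervals. These random draws were not repeated either, so differences between the 2 depths include variation between draws. Spots with at least 2 UMIs numbered 12 in Control bone, with 29 UMIs, and 17 in Loaded bone, with 49 UMIs, and the highest spots held 5 and 7. Within Loaded bone, 69 of the 80 UMIs lay within 500 µm of the middle, at a level of 66.2 (51.5 to 83.7) against 36.7 (18.3 to 65.6) at the ends, and in Control bone the levels were 27.8 (15.5 to 45.8) and 37.7 (27.3 to 50.8). The ratio of middle to ends was +0.85 (-0.08 to 1.92) in Loaded and -0.44 (-1.40 to 0.43) in Control, and no member passed the limits. The 500 µm were set after the *Il11* positions were seen. In that contrast, 1.15% of all genes tested in Loaded were higher in the middle and 2.46% lower, and in Control 2.19% and 2.77%.

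*Socs3*, the feedback inhibitor of gp130, was higher in Control bone than in the other spots of that section. It had 43 UMIs in this bone and 190 in the other spots, or 25.6 (18.5 to 34.4) against 10.6 (9.18 to 12.3) normalized UMIs per 100 spots. The ratio was +1.27 (0.75 to 1.75) or 2.40-fold. In the Loaded section it had 22 UMIs in bone and 159 in the other spots, or 16.4 (10.3 to 24.8) against 12.8 (10.9 to 15.0), a ratio of +0.35 (-0.36 to 1.00). Loaded bone was lower than Control bone by an amount within counting error (-0.64, -1.45 to 0.13), and this ratio was negative under each alternative, from -0.79 to -0.31.

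The *Socs3* level of Control bone was uneven. Its blocks were at 32.7, 0, 29.4 and 19.3, with 23, 0, 11 and 9 UMIs, and overlapped those of the other spots, from 8.23 to 14.3. Loaded bone blocks were at 19.4, 18.9, 13.4 and 12.7. The blocks of the Loaded other spots ranged from 7.83 to 25.3, the highest close to the level of Control bone as a whole. Leaving out block 1 of Control bone lowered the ratio to the other spots to +0.94, below the limit. Of the 43 UMIs, 24 lay in 11 spots with at least 2, where Loaded bone had 1 such spot. In Control, spots within 200 µm of bone were at 17.3 (12.8 to 22.8), against 7.77 (4.75 to 12.0) at 200 to 500 µm. At 500 to 1000 µm the level was 10.4 (7.58 to 13.9), with an interval that overlapped that of the nearest spots. Beyond 1000 µm it was 9.36 (7.37 to 11.7). In Loaded the 4 distances gave 14.7, 12.6, 19.1 and 8.49.

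**Figure D3:**
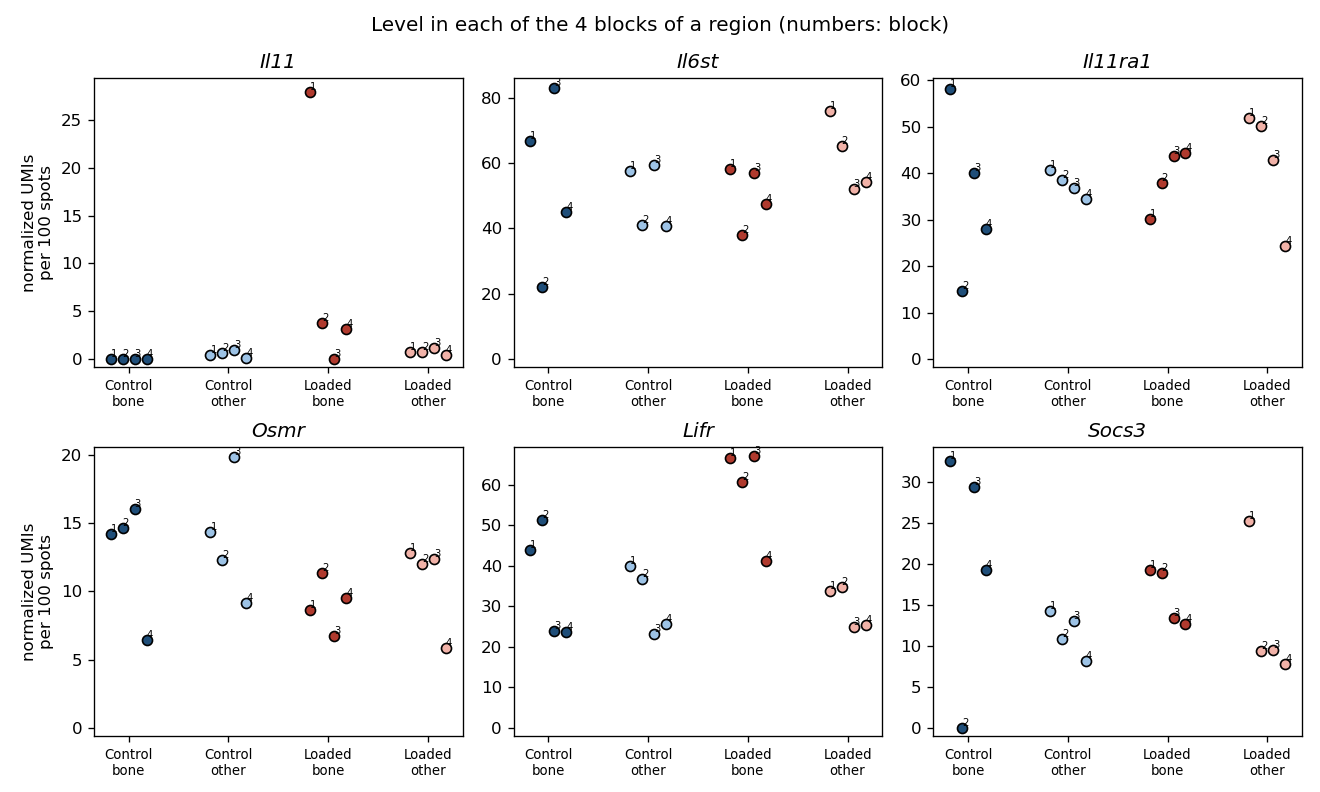
Level of *Il11*, the 4 receptor genes and *Socs3* in each of the 4 blocks of a region, in normalized UMIs per 100 spots, 1 point per block and its number beside it. Block 1 of Loaded bone carries the *Il11* level, all Loaded bone blocks of *Lifr* stand above all Loaded other blocks, and the Control bone blocks of *Socs3* spread from 0 to 32.7.

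Counted over the members, 1 of the 6 with enough UMIs was higher in Loaded than in Control bone (*Il11*) and 0 were lower, where 6.66% and 6.09% of the 10003 genes tested were. No member had all blocks of one bone region above or below all blocks of the other, where 3.9% and 2.57% of genes did. Between bone and other spots of Control, 1 of 8 was higher (*Socs3*) and 0 lower, against 4.89% and 5.38% of 14683 genes. In Loaded, 2 of 7 were higher (*Il11* and *Lifr*) and 0 lower, against 3.7% and 4.57% of 13849 genes. Between the other spots of the sections, 0 of 9 were higher or lower, against 3.75% and 3.5% of 16326 genes. The median log2 ratio of the members tested was -0.20, 0.30, 0.35 and -0.10 in these 4 comparisons, and that of all genes 0.02, -0.05, 0.00205 and 0.04.

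**Figure D4:**
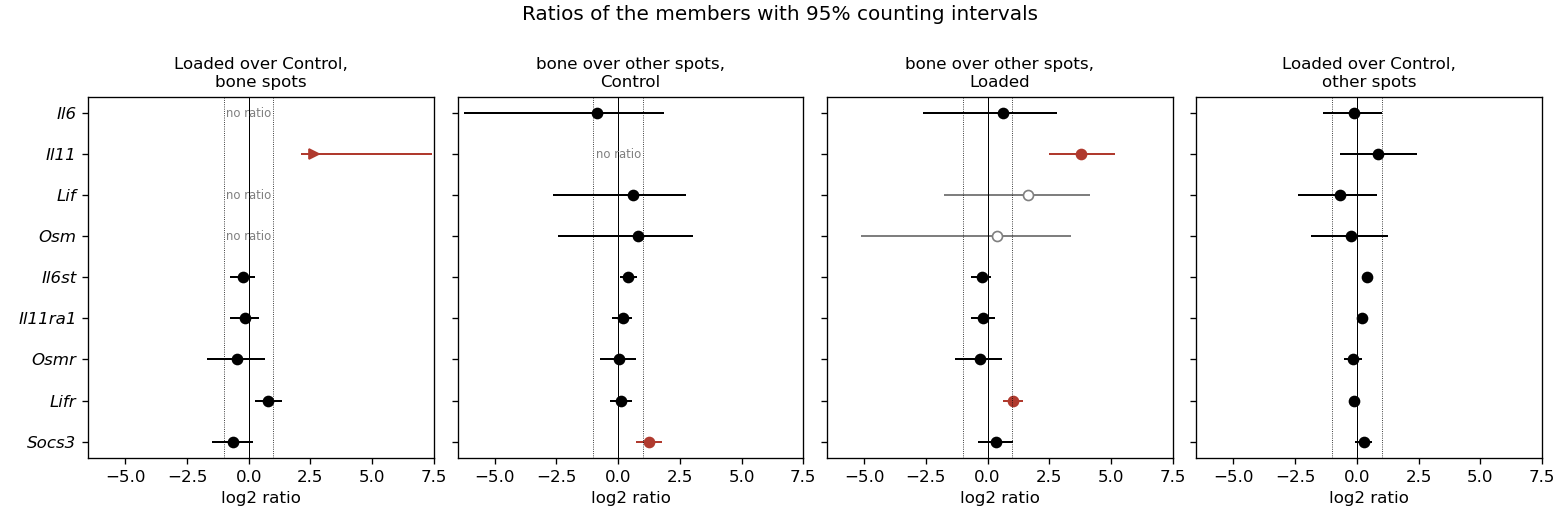
Log2 ratios of the 9 members in the 4 comparisons, with exact conditional binomial 95% intervals as bars. Red marks a ratio past 2-fold whose interval leaves out 0, and open points rest on fewer than 10 UMIs. The triangle is a ratio with a sum of 0 set to 3 UMIs, and dotted lines mark 2-fold. *Il11* and *Lifr* in Loaded bone and *Socs3* in Control bone are the red points.

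In the other spots, the common receptor chain was slightly higher in the Loaded section. *Il6st* was at 60.8 (56.5 to 65.3) in Loaded and 45.5 (42.4 to 48.7) in Control, a ratio of +0.42 (0.27 to 0.56), and *Il11ra1* at 42.7 (39.2 to 46.5) and 37.1 (34.3 to 40.1), a ratio of +0.20 (0.04 to 0.37). Both fell short of 2-fold, and the blocks of the sections overlapped, where 1.49% of genes had all Loaded blocks above and 2.14% all below. Muscle markers made up 18.6% of these UMIs in Loaded and 30.9% in Control. Within muscle spots *Il6st* was at 59.2 (53.8 to 65.1) in Loaded and 40.8 (37.4 to 44.4) in Control, and in the remaining spots at 63.0 (56.3 to 70.3) and 58.7 (52.0 to 66.1). *Osmr* and *Lifr* were at -0.15 and -0.10 in the same comparison and turned positive with library totals, at 0.23 and 0.27.

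Levels in the other spots were also read by distance from the nearest bone spot. *Il6st* was highest within 200 µm of bone in both sections, at 52.8 (44.7 to 62.0) in Control and 72.4 (63.3 to 82.5) in Loaded, against 45.7 (41.1 to 50.6) and 56.1 (49.2 to 63.7) beyond 1000 µm, with overlapping intervals in both. *Lifr* was lower near bone in Control, from 21.8 (16.7 to 28.0) within 200 µm to 39.9 (35.7 to 44.5) beyond 1000 µm. In Loaded it went from 26.3 (20.9 to 32.6) to 33.0 (27.8 to 39.0), and the intervals overlapped. The muscle share of UMIs was 19.0% within 200 µm and 32.4% beyond 1000 µm in Control, and 12.3% and 21.3% in Loaded.

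Likeness between members with at least 200 UMIs was read over the 16 blocks of the 4 regions. Pearson's r of the log2 levels, given as a description across blocks that share a section and its depth, was 0.79 between *Il6st* and *Socs3*, 0.75 between *Il11ra1* and *Socs3* and 0.72 between *Il6st* and *Il11ra1*. *Osmr* was at 0.11, 0.21 and -0.03 with these, and *Lifr* at -0.25, -0.02 and -0.09. Block 2 of Control bone was the lowest of the 16 for *Il6st*, *Il11ra1* and *Socs3*, with 3, 2 and 0 UMIs. Its 0 for *Socs3* is far from the other blocks on the log2 scale and weighs on each r of *Socs3*. Values without this block were not computed. Among 7956 other genes, those most like each member were *Sntb2*, *Zfp703* and *Asap1* for *Socs3* (r of 0.97, 0.94 and 0.93), *Tmem158*, *Ralb* and *Galnt17* for *Il6st* (0.90, 0.88 and 0.87), *Sgsm2*, *Rcan3* and *Arpin* for *Il11ra1* (0.89, 0.87 and 0.86), *Matn2*, *Erf* and *Cmklr1* for *Osmr* (0.89, 0.79 and 0.79), and *Calr*, *Gpr153* and *Plekhn1* for *Lifr* (0.88, 0.88 and 0.87). These are the highest of 7956 values for each member.

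Of 7 other ligand genes, 2 had enough UMIs in the bone regions, and neither passed the limits. *Ctf1*, encoding cardiotrophin-1, had 10 UMIs in Loaded and 12 in Control bone (+0.06, -1.31 to 1.40). Of 4 other receptor genes measured, *Il6ra* and *Cntfr* had enough UMIs in bone, and neither passed the limits. Of all genes tested in bone, 6.66% were higher and 6.09% lower, so these counts say little about so few genes. *Il6ra*, chosen for its role after its values were seen, had 10 and 11 UMIs (+0.19, -1.21 to 1.56). *Cntfr*, the chain for ciliary neurotrophic factor and known in muscle, was lower in bone than in the other spots of Control (-1.30, -1.81 to -0.84) and lower in the Loaded than in the Control other spots (-1.41, -1.62 to -1.21). *Il31ra* was higher in the Loaded other spots, with 14 against 6 UMIs (+1.75, 0.28 to 3.42). Of all genes tested, 5.38% were lower in bone than in the other spots of Control. Between the other spots of the sections, 3.75% were higher and 3.5% lower in Loaded.

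**Figure D5:**
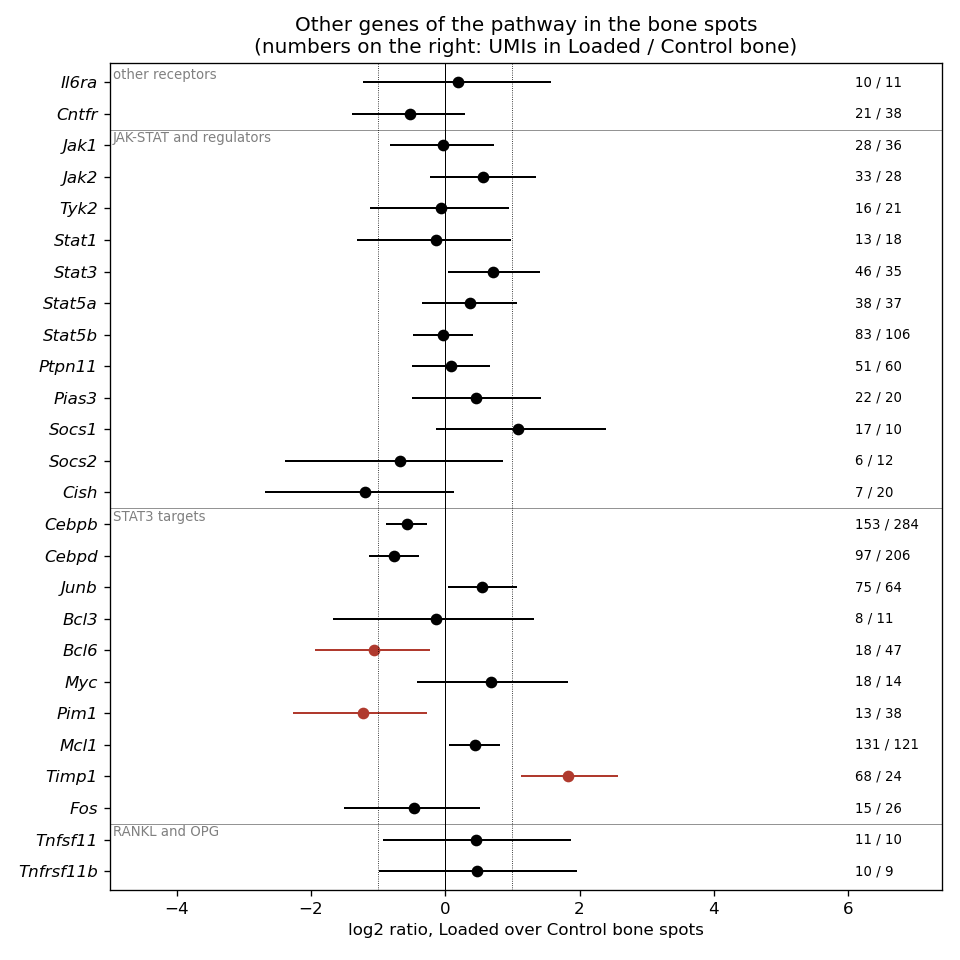
Log2 ratios of Loaded over Control bone spots for the other receptors, the JAK-STAT genes, the STAT3 targets and RANKL with osteoprotegerin, each with at least 10 UMIs, with exact conditional binomial 95% intervals and, on the right, the UMIs in Loaded and Control bone. *Timp1* was higher and *Bcl6* and *Pim1* were lower (red), and 0 of the 12 JAK-STAT genes passed the limits.

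Of 12 genes for kinases, STAT factors and their regulators, 0 were higher and 0 lower in Loaded bone, where 6.66% and 6.09% of all genes tested were. The median log2 ratio was 0.03, over genes that lay on both sides of 0, against 0.02 for all genes. *Stat3* itself, named after its values were seen, had 46 and 35 UMIs (+0.72, 0.05 to 1.40). *Cish*, a feedback inhibitor of STAT5 signalling, had 7 and 20 UMIs (-1.19, -2.68 to 0.11), and *Socs2*, another, had 6 and 12 (-0.68, -2.37 to 0.85). In the other spots both were lower in the Loaded section in all 4 blocks, at -2.14 (-2.55 to -1.75) for *Cish* and -1.82 (-2.76 to -0.98) for *Socs2*. Of all genes tested in this comparison, 3.5% were lower and 2.14% had all Loaded blocks below. *Socs2* was also higher in bone than in the other spots of Loaded (+1.98, 0.32 to 3.45), on 6 and 14 UMIs, as were 3.7% of all genes tested.

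Of 10 genes listed as targets of STAT3, 1 was higher and 2 were lower in Loaded bone, against 6.66% and 6.09% of all genes tested, with a median of -0.30 against 0.02. *Timp1*, an inhibitor of matrix metalloproteinases, had 68 UMIs in Loaded and 24 in Control bone, 3.55-fold (+1.83, 1.14 to 2.56). It was also higher in bone than in the other spots of both sections (+1.89 in Control and +2.35 in Loaded) and in the Loaded other spots (+1.36). Of all genes tested in these 3 comparisons, 4.89%, 3.7% and 3.75% were higher. *Bcl6*, a transcriptional repressor, had 18 and 47 UMIs (-1.06, -1.93 to -0.25), and *Pim1*, a survival kinase, had 13 and 38 (-1.22, -2.26 to -0.28). Between the other spots of the sections, *Bcl6* was also lower in Loaded, at -0.69 (-0.88 to -0.49), and *Pim1* was at -0.02 (-0.31 to 0.26). *Cebpd*, named after its values were seen, had all 4 Loaded bone blocks below all Control bone blocks at a ratio of -0.76, short of 2-fold. Of all genes tested, 2.57% had this order of blocks. The other spots of Loaded were also below those of Control in all blocks (-0.62, -0.74 to -0.51), as for 2.14% of genes. Members of the list moved in both directions, so it had no common direction.

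RANKL (*Tnfsf11*), which drives osteoclast formation downstream of this family, had 11 UMIs in Loaded and 10 in Control bone (+0.46, -0.91 to 1.85). Its decoy receptor osteoprotegerin (*Tnfrsf11b*) had 10 and 9 (+0.48, -0.98 to 1.95). *Tnfsf11* was higher in bone than in the other spots in Control (+1.56, 0.39 to 2.60) and in Loaded (+1.54, 0.41 to 2.55). *Tnfrsf11b* was higher in bone in Loaded (+2.44, 1.15 to 3.65), where its other spots held 17 UMIs against 62 in Control (-1.34, -2.21 to -0.55), and was at +0.62 (-0.57 to 1.64) in Control. Of all genes tested, 4.89% were higher in bone than in the other spots in Control and 3.7% in Loaded. Between the other spots of the sections, 3.5% were lower in Loaded.

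Over the 5 lists together, 1 of 28 genes tested was higher and 2 were lower in Loaded than in Control bone, against 6.66% and 6.09% of all genes, and with library totals 2 were higher and 1 lower. Between bone and other spots of Control, 2 of 31 were higher and 1 lower, against 4.89% and 5.38% of all genes, which became 9 and 0 with library totals. In Loaded, 4 of 33 were higher and 0 lower, against 3.7% and 4.57%, which became 5 and 0. Between the other spots of the sections, 2 of 34 were higher and 4 lower, against 3.75% and 3.5%, which became 6 and 3. The shares of all genes are those of the main scaling and are not given for library totals. Library totals moved the median of all genes up in each of these comparisons, by 0.51 between bone and other spots of Control. The counts with library totals can therefore not be set against these shares. Nothing particular to the lists is read from these counts.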

How the data were processed

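Visium FFPE libraries of 1 Control and 1 Loaded femur section were sequenced by the authors and counted with SpaceRanger 2.0.0 against mm10 (build per the submitters' processing notes). The deposited values are raw UMI counts per gene and spot, with no normalization and nothing pooled. Spot positions were used, and images were not. The 9 members, the gene lists and the alternatives were chosen with earlier results of these data known.

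Spots with fewer than 500 UMIs or 250 genes were left out, as in the study. Size factors were computed over all kept spots with scran 1.30.0 (R 4.3.3), and a region's UMIs were scaled by its summed factors. The study tested spots with DESeq2, which was left out here, since a section's spots do not replicate a condition. Intervals are exact at the 95% level. A sum of 0 was set to 3 UMIs, and a ratio with it depends on that setting and is not a confidence limit. No ratio was given where both sums were at most 3 or where a ratio set this way pointed the other way. The ratio, its interval and the limits were tested on simulated Poisson counts, the error that the intervals assume. The simulation held no unevenness between blocks, so it does not show how the limits perform on uneven counts. Scaling by library totals instead moved the median of all genes by 0.12 (Loaded over Control bone), 0.51 and 0.25 (bone over other spots in Control and Loaded) and 0.38 (other spots), so ratios are read relative to the median.

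The text names all members, from each list the genes past the limits in a comparison (at most 4, those with the most UMIs) or else the 2 with the most UMIs, and for members with at least 200 UMIs the 3 genes with the highest Pearson's r of log2(level per spot + 0.01) over 16 blocks. A gene that this rule selects is not reported here. Alternatives included library totals, factors by the TMM method of edgeR 4.0.16, scran with clusters, scran over bone spots alone, no filter, other limits, leaving out each block, bone spots low in muscle, thinning to 500 UMIs or none, and other muscle limits. Motifs were searched in RefSeq promoter sequences (GRCm38.p6), without the 50 transcribed bases. Analyses used Python 3.11.15, numpy 2.4.6, scipy 1.17.1, pandas 2.3.3 and matplotlib 3.10.9. Both sections use 557 of the same spot barcodes, which are grid positions and not shared cells.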

Additional observations from a re-analysis of the deposited data

How the results depend on the processing

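No paired analysis was possible because each condition had 1 section. No ratio of a member past the limits changed its direction under an alternative. Of the values of single members under an alternative, 15 moved beyond their counting interval and 377 did not. This count took no account of a shift of all genes. With library totals, *Il6st*, *Il11ra1*, *Lifr* and *Socs3* moved between bone and other spots of Control, and these and *Osmr* between the other spots. Each of these values moved by the shift of all genes, 0.51 and 0.38, and so not relative to the median. The count of members higher in Loaded than in Control bone, 1 in the analysis above, was 2 at a log2 limit of 0.5, 0 at 20 UMIs and 0 in bone spots low in muscle, where *Il11* had 7 UMIs against 0, under the minimum, and 1 member was lower (*Il11ra1*, -1.40 on 8 and 17 UMIs). It ranged from 0 without Loaded bone block 1 to 2 without Control bone block 1, where *Lifr* joined *Il11*. The count of members higher in bone than in the other spots ranged from 0 to 1 with blocks left out in Control and from 0 to 2 in Loaded, and was 1 in Loaded with TMM factors. The shares of all genes given above for these comparisons hold for the main settings. None is set beside the counts under an alternative, so nothing particular to the members is read from them. Members whose share of bone spots was higher in Loaded beyond the intervals numbered 0 after thinning and 1 without thinning. Members lower in muscle spots fell from 2 to 1 in Control at a muscle share of 5%, and from 1 to 0 in Loaded at 5% and at 20%. The share of all genes that were lower also fell there. It went from 34.6% to 22.3% in Control, and from 23% to 9.58% and 16.9% in Loaded. These falls are thus not particular to the members. With library totals the pathway counts were 2 higher and 1 lower in bone, 9 and 0 for bone over other spots in Control, and 6 higher between the other spots. Library totals moved all genes up in these comparisons, and no share of all genes with them is set beside these counts. Without Loaded other block 1, *Socs3* in the other spots went from +0.27 to -0.23. Apart from the shift of all genes with library totals, the cause of these moves was not tested. Depth limited *Il6*, *Lif* and *Osm* most, since 1 or 2 UMIs in a bone region leave no ratio.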
